A study of Rattus norvegicus with 421 samples.

Results

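Proteasome subunits were followed as mRNA in livers of rats given 1 of 30 compounds. The probe sets were those with exactly 1 gene symbol that starts with Psma, Psmb, Psmc or Psmd, without the inducible subunits Psmb8, Psmb9 and Psmb10. The prefixes took 32 of the 15866 probe sets of the array. Psmc3ip was among them, a partner of Psmc3 known for its part in meiotic recombination and not a subunit, and it was left out of all counts. The other 31 probe sets stood for 30 of the 10411 genes with a probe set of 1 symbol, since Psmd11 had 2 probe sets. These were 7 alpha and 6 beta genes of the core, 8 base and 6 lid genes of the cap, and the 3 chaperones of base assembly Psmd5, Psmd9 and Psmd10. The catalytic subunit Psmb6 was not among them because its probe set carries 2 symbols.

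The series held arrays of male Wistar Hanover rats, 8 to 10 weeks old when assigned to groups, with 293 from treated animals in 98 groups and 128 from vehicle animals in 38 groups. Compounds were given by gavage for 1, 3, 7 or 14 days, or in the case of acetaminophen sampled at 6, 12, 24 or 48 hours, and each treated group had 3 arrays, or 2 in 1 group, from animals picked out of 5 on histopathology. Each treated group was compared with the vehicle group that its label names, which had received corn oil, carboxymethylcellulose or saline. Values are log2 intensities of the robust multi-chip average (RMA), and changes are treated minus vehicle on that scale. The standard error (SE) of a change and its p come from a limma fit that estimates the spread over all groups. A probe set was called when its adjusted p was below 0.05 and its change at least 1.5-fold. The groups described most fully received 1200 mg/kg piperonyl butoxide (PBO), 600 mg/kg dehydroepiandrosterone (DHEA) or 60 mg/kg Wy-14643 (Wy) with carboxymethylcellulose as the vehicle, 100 mg/kg cyproterone acetate (CPA) in corn oil, or 4250 mg/kg acetaminophen (Aap) against saline. Single calls came from 200 mg/kg ethionine (ETH) with carboxymethylcellulose and 300 mg/kg 1,4-dichlorobenzene in corn oil. The other 23 compounds follow with their mg/kg in brackets. Corn oil was the vehicle of C.I. Direct Black (146), dimethylnitrosamine (4), 2-nitrofluorene (44), 3-methylcholanthrene (25) and methylenedianiline (50). Carboxymethylcellulose was that of 2-acetylaminofluorene (1.2), acetamide (3000), aflatoxin B1 (0.24), allyl alcohol (36), cefuroxime (250), clonidine (0.1), diethylstilbestrol (10) and ibuprofen (94). It was also the vehicle of methapyrilene (60), methylcarbamate (400), the nitrosamine NNK (20), N-nitrosomorpholine (3.5) and N-nitrosopiperidine (20). The same vehicle was used for nifedipine (3), phenobarbital (80), prazosin (1), propranolol (40) and thioacetamide (19.2). For the groups named by day, livers were taken 1 day after the last dose. Only 1 strain, 1 sex and 1 dose per compound were used, so none of these could be compared.

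The proteasome is the protease complex that degrades proteins tagged with ubiquitin. Its core is a stack of rings, in which alpha subunits form the gate and beta subunits hold the catalytic sites, and its cap binds, unfolds and feeds in the substrate: the base contains a ring of ATPases (Psmc genes) and large scaffold subunits, and the lid helps to bind the substrate and remove ubiquitin. The genes of the subunits are known to be transcribed together, with NFE2L1 as the factor that raises them when the proteasome is inhibited and NFE2L2 (NRF2) as a factor that can raise them in oxidative stress. In liver, as in other tissues, interferon replaces the catalytic beta subunits by Psmb8, Psmb9 and Psmb10 to form the immunoproteasome.

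The members lay on 15 chromosomes, with at most 5 genes on 1 of them, and 11 of the 30 genes have a copy or pseudogene listed in RefSeq that a probe set could also measure. RefSeq promoters of the GRCr8 build, 250 bases before to 50 bases after the start of a gene, were matched for 28 of the 30 genes, all but Psma7 and Psmd6. The start in the promoter table was the outer end of the RefSeq gene for 18 of the 28. It lay inside the gene for the other 10, by 3 bases in Psma5 to 13671 in Psma6. The distance was 35 bases in Psma3, 76 in Psmd9, 689 in Psmd3, 1746 in Psmb1 and 3595 in Psmd5. Like Psma5, these genes hold a form of the antioxidant element searched below. The whole window of Psmd3, Psmb1 and Psmd5 thus lay inside the gene. The antioxidant response element was searched as TGACNNNGC, where N is any base, on both strands. It was held by 6 of the 28 member promoters (21.4%), Psma3, Psmb2, Psmb5, Psmd1, Psmd3 and Psmd9, and by 12.1% of all 33469 promoter windows. The relaxed form TGAGNNNGC was held by 8 of 28 (28.6%), among them Psma5 and Psmd13, and by 17.2% of all. CCAAT boxes were found in 16 of the 28 (37.5% of all), GGGCGG boxes in 19 (33.1% of all), the letters GCGTG in 16 (29.7% of all), and the heat shock pair GAANNTTC in 2 (8.59% of all). Psma1, the member called in the most groups together with Psma4, held neither form of the antioxidant letters in this window. The 130 bases before the start of 5 genes are shown because these members are described below and hold one of the forms, both or, in Psma1, neither. Capitals mark the letters of either form on either strand where the whole match lies before the start. A further relaxed match in Psmb2 began 6 bases before the start and ran past it, so its letters stay in lower case.
Psmb5: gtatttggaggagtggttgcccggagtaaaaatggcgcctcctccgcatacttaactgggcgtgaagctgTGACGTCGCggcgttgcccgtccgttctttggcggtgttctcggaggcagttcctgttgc
Psmb2: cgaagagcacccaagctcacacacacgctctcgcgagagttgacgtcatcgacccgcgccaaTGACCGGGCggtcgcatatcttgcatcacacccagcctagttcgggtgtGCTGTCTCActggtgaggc
Psma5: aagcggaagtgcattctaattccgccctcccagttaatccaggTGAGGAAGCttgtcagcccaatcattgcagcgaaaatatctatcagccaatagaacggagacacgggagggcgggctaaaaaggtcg
Psmd13: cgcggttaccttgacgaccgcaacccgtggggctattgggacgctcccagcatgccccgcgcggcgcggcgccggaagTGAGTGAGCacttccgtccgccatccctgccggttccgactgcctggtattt
Psma1: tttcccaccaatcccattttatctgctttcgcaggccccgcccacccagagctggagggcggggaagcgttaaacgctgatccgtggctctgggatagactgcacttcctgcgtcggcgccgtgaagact
The windows are Psmb5 chr15:32047380-32047509 on the minus strand, Psmb2 chr5:144254928-144255057 on the plus strand, Psma5 chr2:198584375-198584504 on the plus strand, Psmd13 chr1:205394118-205394247 on the plus strand, Psma1 chr1:177887858-177887987 on the minus strand. In Psmb5 the match began 60 bases before the start and in Psmb2 it began 68 bases before. These matches are a description of the letters and not of binding.

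Higher calls outnumbered lower calls for these genes by 142 to 2 over the 98 comparisons. The 142 calls were 4.67% of the 3038 tests of members, where 1.02% of all tests on the array were called higher. The 2 lower calls were 0.0658% of the tests, against 0.731% for all probe sets. At the adjusted p alone, 472 tests were higher (3.74% of all tests on the array) and 31 lower (3.35% of all). In 84 groups no member was called. The median change of the 31 probe sets was above 0 in 80 of 98 groups, and ranged from -0.12 in ibuprofen day 7 to 1.08 in PBO day 1.

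The calls were gathered in a few compounds. A total of 7 of the 30 compounds had a member called, and 132 of the 142 higher calls were in 8 groups of 5 compounds, PBO, CPA, Aap, DHEA and Wy. ETH, an antimetabolite of methionine, had 5 higher calls and 1 lower, and 1,4-dichlorobenzene 1. The other 23 compounds, with 74 groups, had no member called by limma. There 510 of 2294 tests had an unadjusted p below 0.05 (13.5% of all tests on the array in these groups), and 107 were higher (2.22% of all) and 21 lower (1.83% of all) at the adjusted p alone. Their group medians lay between -0.12 and 0.27, highest for phenobarbital day 1, and no single member changed by more than 0.57 in either direction. Treated groups of 1 block share vehicle arrays, among them PBO and ETH, or DHEA and Wy at the same day, so the groups are not independent. In whole liver a difference in mRNA per cell and in the number of cells of a type cannot be told apart.

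**Figure D1:**
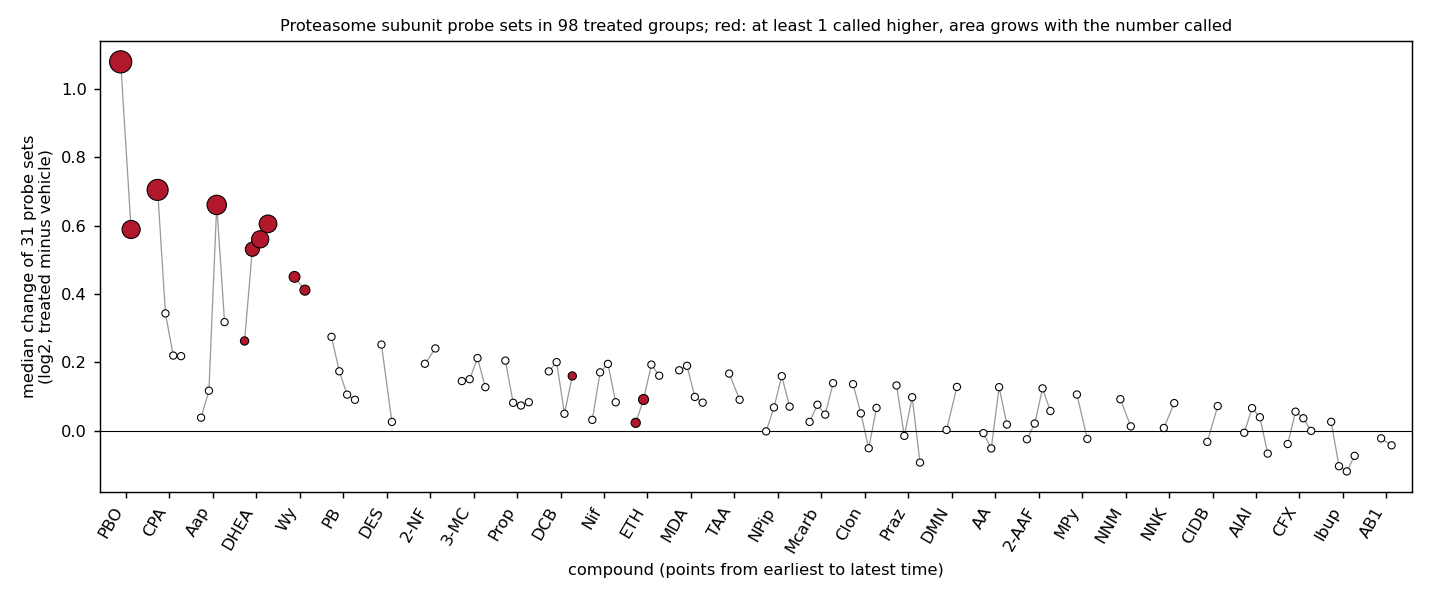
The y axis is the median log2 change of the 31 proteasome probe sets, and each point is 1 of the 98 treated groups, placed by compound from the earliest to the latest time and joined by lines. Filled red points have at least 1 member called higher and grow with the number called. PBO, CPA, Aap, DHEA and Wy rise above the other compounds, and the highest point is PBO day 1 at 1.08.

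Most subunits rose in several groups. Psma1 and Psma4, alpha subunits of the core ring, were called higher in 9 groups each, and Psma2 in 8. Psma5, the beta subunit Psmb7, the base ATPase Psmc5 and the lid genes Psmd13, Psmd6 and Psmd8 were called in 7 groups each. In all, 28 of the 31 probe sets were called higher in at least 1 group. The 3 that were not were Psma3, with a largest change of 0.57, and the chaperones Psmd9 and Psmd10, with 0.45 and 0.27. Psma3 also has a pair of listed copies.

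PBO, a methylenedioxyphenyl insecticide synergist that is known to inhibit and induce cytochrome P450 enzymes, gave the broadest change. On day 1, 27 of the 31 probe sets were called higher, where 4.48% of all probe sets were, and the median change was 1.08 where that of all probe sets was -0.02. By role, 6 of 7 alpha genes, 6 of 6 beta genes, 8 of 8 base genes, 6 of 6 lid genes and 1 of 3 chaperones rose. The 3 PBO arrays lay above the 4 vehicle arrays in 31 of 31 probe sets, against 14.1% of all probe sets.

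The largest changes were in the core and the base. Psma2 read 11.71, 11.41 and 11.26 in the PBO animals and 10.07, 9.73, 10.06 and 10.10 in the vehicle animals. The gap between the groups was more than 1 log2 unit, and the change was 1.47 ± 0.10 (2.77-fold, adjusted p = 3.43e-36, limma). Psma1 read 11.59, 11.16 and 11.17 against 10.09, 9.49, 9.72 and 10.06, a change of 1.47 ± 0.12. The vehicle arrays of this gene were spread more widely than those of Psmc5, which read 9.73, 9.59, 9.59 and 9.83. Psmc5 stood at 11.15, 11.16 and 11.12 after PBO, so its 3 treated animals were nearly equal, and it rose by 1.45 ± 0.10. Psmb3, a beta subunit without a catalytic site, rose by 1.44 ± 0.09 from 10.97 to 11.15 in the vehicle arrays to 12.43 to 12.53. RefSeq lists 10 copies or pseudogenes of Psmb3, which the probe set may share. Psma5, whose promoter is shown above with the relaxed form, rose by 1.38 ± 0.10.

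The catalytic subunits rose less than these on PBO day 1, although changes of different probe sets depend on how each responds to its transcript. Psmb5, the chymotrypsin-like subunit, read 12.58, 12.60 and 12.54 after PBO and 11.54, 11.79, 11.77 and 11.49 in the vehicle group. The groups did not overlap, and the change was 0.93 ± 0.08 (adjusted p = 6.62e-25, limma). Psmb7, the trypsin-like subunit, read 12.40, 12.52 and 12.42 against 11.15, 11.09, 11.24 and 11.29. Its change was 1.25 ± 0.08. Psmb2 reached its only call in this group, at 0.81 ± 0.08.

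Among the cap genes, Psmd13 rose by 1.32, Psmd1, the large scaffold of the base, by 1.27, and Psmd4, a ubiquitin receptor, by 1.01. Psmd5, a chaperone that holds ATPases before they join the base, read 10.67, 10.13 and 10.23 against 9.49, 8.95, 8.96 and 9.41 and rose by 1.14 ± 0.12. Psmd9 and Psmd10, which serve the same step, changed by 0.38 and 0.20 and were not called. Psma3 changed by 0.27 (adjusted p = 0.068, limma). The 2 probe sets of Psmd11 gave 0.70, called, and 0.46, not called.

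After 3 days of PBO the same direction held with smaller values. Here 17 of 31 probe sets were called higher (1.42% of all), 10 of 13 core and 6 of 14 cap genes among them, and the median change was 0.59. The largest were Psmb3 at 1.01 ± 0.09, Psmb4 at 0.92 ± 0.09, Psma1 at 0.91 ± 0.12, Psmd8 at 0.87 ± 0.10 and Psma7 at 0.81 ± 0.08. The 3 animals differed: Psmb5 read 12.57, 12.24 and 12.01, and Psma2 11.11, 10.99 and 10.55, with replicate 3 the lowest in both. Without PBO day 3 replicate 1 the count fell to 11, and without replicate 3 it was 21.

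The day 3 change was smaller than the day 1 change for 7 members by the test of the difference between the days (1.74% of all probe sets), and larger for none (0.756% of all), with a median difference of -0.45. These were Psma5 (-0.74 ± 0.14), Psma2 (-0.76 ± 0.13), Psmb1, Psmb7, Psmc5, Psmd1 (-0.77 ± 0.16) and Psmd13 (-0.74 ± 0.14). The count of 7 ranged from 4, without PBO day 3 replicate 3, to 10 when 1 array was left out.

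**Figure D2:**
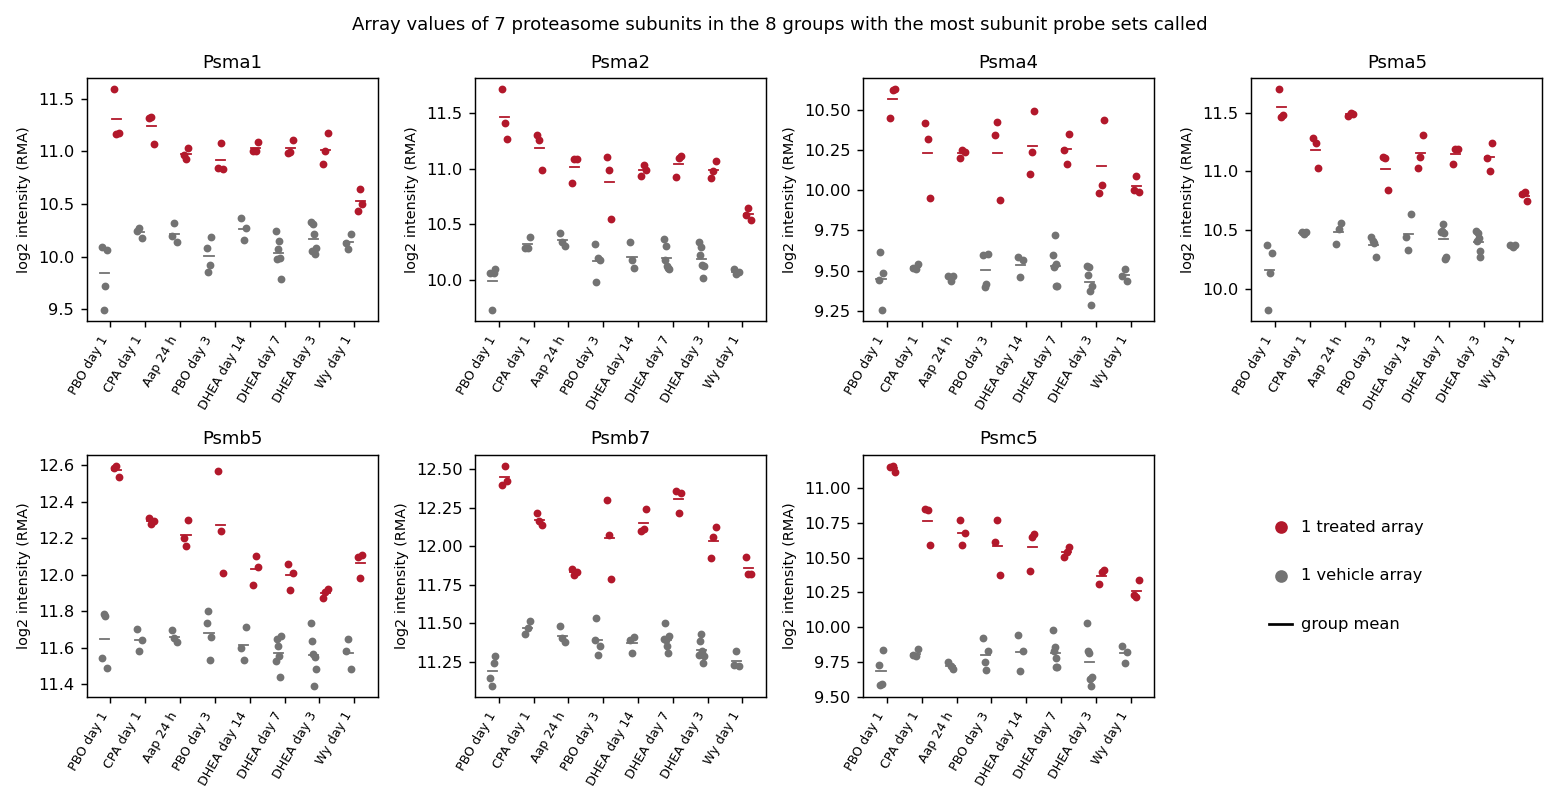
Each panel is 1 subunit, with log2 RMA intensity on the y axis and the 8 groups with the most calls on the x axis. Red points are treated arrays, grey points the arrays of the vehicle group named in the label, and short lines the group means. In all 7 subunits the treated arrays lie above their vehicle arrays in each of the 8 groups, and PBO day 1 has the highest group mean.

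CPA, a steroidal antiandrogen known to activate the pregnane X receptor and to drive liver growth in rats, gave a day 1 change of similar breadth and smaller size. Of the 31 probe sets 24 were called higher, where 1.99% of all were, and the median change was 0.70. The 3 treated arrays lay above the 3 vehicle arrays in 30 probe sets (16.1% of all). By role, 5 of 7 alpha, 4 of 6 beta, 8 of 8 base and 5 of 6 lid genes and 1 chaperone rose.

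Psmb3 led with 12.20, 12.17 and 12.04 in the treated arrays against 11.06, 11.15 and 11.12, a change of 1.03 ± 0.10 (adjusted p = 1.22e-19, limma). Psma1 followed at 1.01 ± 0.13, then Psmc5 at 0.95 ± 0.11, Psmd1 at 0.89 ± 0.12 and the ATPase Psmc4 at 0.88 ± 0.08. Psma4 read 10.42, 10.32 and 9.95 against 9.52, 9.51 and 9.54. Replicate 3 was the lowest of the treated arrays, as it also was for Psmc5 at 10.59 beside 10.85 and 10.84. Psmb5 read 12.31, 12.28 and 12.30 against 11.70, 11.58 and 11.64 and rose by 0.65 ± 0.08. Both Psmd11 probe sets were called, at 0.72 and 0.71.

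With longer CPA dosing the change shrank. The median change was 0.34 on day 3, 0.22 on day 7 and 0.22 on day 14, and on these days limma called no member higher (1.12%, 0.517% and 0.548% of all). An unadjusted p below 0.05 was reached by 25, 19 and 20 members, and 22, 7 and 7 were higher at the adjusted p alone (5.26%, 2.49% and 3.74% of all). The share of all probe sets at an unadjusted p below 0.05 was not counted for single groups or time differences. Such counts, here and below, are thus no result about the members. At day 14 the change was smaller than at day 1 for 7 members (1% of all probe sets), with a median difference of -0.49: Psmc5 (-0.72 ± 0.16), Psmb3 (-0.70 ± 0.13), Psmd3 (-0.67 ± 0.13), Psmc2 (-0.65 ± 0.13), Psma5, Psma1 and Psma2. None was larger (0.366% of all). After quantile normalization 2 of the members passed, and with 1 array left out the count ranged from 4, without CPA day 1 replicate 1, to 14, without CPA day 1 replicate 3. Psma1 was near the threshold in that test, with an adjusted p of 0.0448 (limma).

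Aap, which is toxic to hepatocytes at high doses through a reactive metabolite that depletes glutathione, changed the members at 24 hours. At 6 and 12 hours limma called none higher or lower (2.75% and 0.8% of all higher), and the medians were 0.04 and 0.12. An unadjusted p below 0.05 was reached by 5 and 11 members, and 2 and 2 were higher at the adjusted p alone (7.71% and 2.44% of all). At 24 hours 20 of 31 were called higher (6.72% of all) with a median of 0.66. At 48 hours the median was 0.32, none was called higher (6.01% of all) with 20 at an unadjusted p below 0.05, and 19 were higher at the adjusted p alone (17.5% of all).

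The cap took a larger share of the 24-hour calls, with 13 of 14 cap genes and 6 of 13 core genes. Psmd6, a lid subunit, read 10.90, 10.66 and 10.73 in the treated arrays and 9.63, 9.61 and 9.62 in the vehicle arrays. It had its largest change of any group here, 1.14 ± 0.10 (adjusted p = 3.74e-22, limma). Psmd5 read 10.86, 10.13 and 10.40 against 9.13, 9.44 and 9.53, with a wide spread in both groups, and rose by 1.10 ± 0.13. Psma5 rose by 1.00 ± 0.10, Psmc5 by 0.95 ± 0.11 and the lid subunit Psmd3 by 0.94 ± 0.09. Psmb5 changed by 0.56 ± 0.08 and Psmb7 by 0.41 ± 0.09, and neither reached 1.5-fold. Of the beta genes 1 of 6 was called, Psmb3.

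Psmd9 went its own way at 48 hours. It read 9.02, 9.28 and 9.12 in the Aap arrays and 9.75, 9.89 and 10.02 in the saline arrays, a change of -0.75 ± 0.11, and it was the one member called lower there (4.03% of all). Against the 6-hour change it differed by -1.04 ± 0.15 (adjusted p = 1.77e-09, limma), the one member of that test called (5.29% of all lower and 7.08% higher). That call was unchanged without replicate 3 of Aap at 6 hours, an array with transcripts of skeletal muscle, whose muscle list averaged 10.74 where the series median was 5.76.

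DHEA and Wy are known in rat liver as peroxisome proliferators, which activate the receptor PPAR-alpha. With DHEA the number called rose from 1 on day 1 (2.21% of all) to 9 on day 3 (2.48%), 15 on day 7 (3.32%) and 16 on day 14 (2.29%). The medians were 0.26, 0.53, 0.56 and 0.61. The day 1 call was Psma2 at 0.59 ± 0.10, lost without vehicle replicate 2, and 5 members were called without DHEA day 1 replicate 3. The change at day 14 was larger than at day 1 by a median of 0.27, but limma called no member in that difference (0.857% of all higher and 1.49% lower), with 15 at an unadjusted p below 0.05. On day 3 the count was 15 without DHEA day 3 replicate 1.

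Psma1, Psma2, Psma4, Psma5, Psmb7, Psmc5, Psmd6, Psmd8 and Psmd13 were called at day 3, day 7 and day 14. Psmd8, a lid subunit, had the largest change, on day 7. Its 3 treated arrays read 11.78, 11.73 and 11.65, and its 6 vehicle arrays ran from 10.44 to 10.82 with a median of 10.61. The groups lay nearly 1 log2 unit apart, and the change was 1.09 ± 0.09 (2.13-fold, adjusted p = 7.76e-26, limma). Psma1 rose by 0.99 ± 0.11 on the same day, Psmb7 by 0.91 ± 0.07, Psma2 by 0.85 ± 0.09 and Psmd6 by 0.78 ± 0.09. On day 14 the leading member was Psmb7, with 12.10, 12.11 and 12.24 against 11.39, 11.30 and 11.41, a change of 0.78 ± 0.09.

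Psmb5 moved less in DHEA, by 0.34 on day 3, 0.42 on day 7 and 0.42 on day 14, below 1.5-fold at each. The Psmd11 probe sets changed by 0.12 to 0.28 over these days. The chaperones Psmd9 and Psmd10 lay between -0.17 and 0.04, and Psmd5 between 0.41 and 0.49, none of them called.

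The median change with Wy was above that of DHEA on day 1, where DHEA had 0.26, and below it on day 3, where DHEA had 0.53. On day 1, 4 members were called higher (2.42% of all), Psma6 at 0.71 ± 0.09, Psmb1 at 0.69 ± 0.08, Psmd1 at 0.62 ± 0.12 and Psmb7 at 0.60 ± 0.09, and 25 passed the adjusted p alone (8.36% of all). Psma6 read 12.07, 11.93 and 12.11 against 11.32, 11.24 and 11.42. The medians were 0.45 on day 1 and 0.41 on day 3, where Psma1 (0.80 ± 0.11), Psmd8 (0.73 ± 0.09) and Psma4 (0.69 ± 0.10) were called (2.44% of all). Replicate 3 of Wy day 1 carried transcripts of exocrine pancreas, with a list mean of 9.99 where the other 2 arrays had 6.67 and 6.70. The count was 5 without it. On day 3 it was 8 without Wy day 3 replicate 1.

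**Figure D3:**
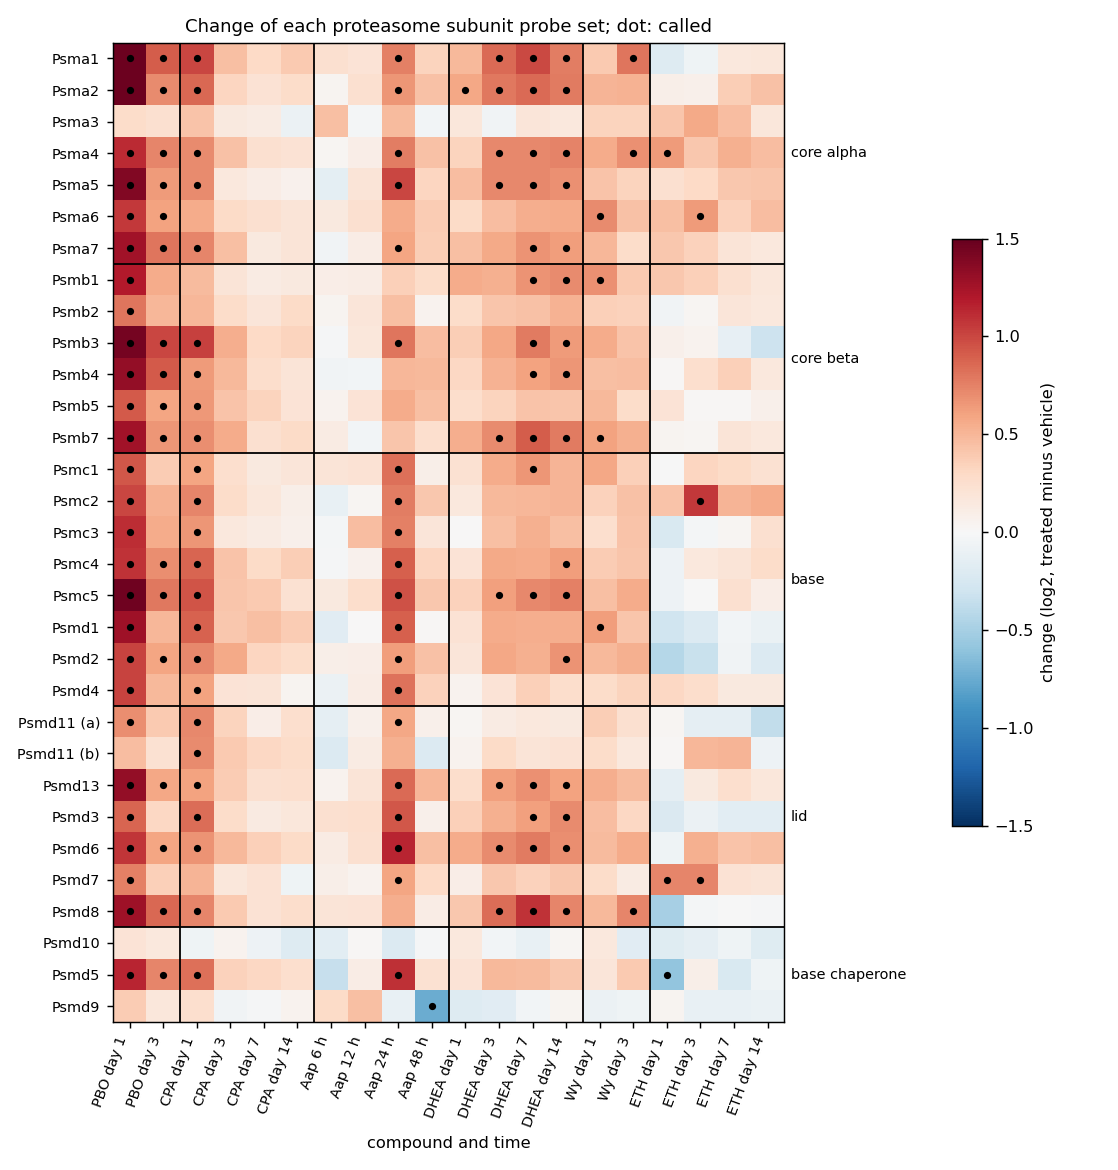
Rows are the 31 probe sets by role and columns the groups of PBO, CPA, Aap, DHEA, Wy and ETH in order of time. Colour is the log2 change, red for higher and blue for lower in treated animals, and a dot marks a call. PBO day 1 and CPA day 1 are red in nearly every row, DHEA fills in from day 1 to day 14, and Psma3, Psmd9 and Psmd10 stay pale in most columns.

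In ETH the members called were few, and their shares lay near those of the array. On day 3, 3 of 31 were called higher (7.91% of all), led by the ATPase Psmc2, which read 12.04, 12.05 and 12.21 against 11.12, 11.09, 10.95 and 11.02 and rose by 1.06 ± 0.09. That was the largest change of Psmc2 in any group. Psmd7, a lid subunit, rose by 0.73 ± 0.10 on day 3 and 0.73 ± 0.10 on day 1, and Psma6 by 0.64 on day 3. On day 1 Psma4 also rose, by 0.64 ± 0.11, and Psmd5 read 9.06, 8.36 and 8.43 against 9.49, 8.95, 8.96 and 9.41. Psmd5 thus fell by 0.59 with 1 treated array inside the range of the vehicle arrays, and its call was lost without vehicle replicate 1 or 4 or without ETH replicate 2 or 3. Same-numbered ETH and vehicle arrays of day 1 deviated together, with correlations of 0.19 to 0.45, and in a fit of these groups with the replicate number as a block Psmd5 changed by -0.52 (adjusted p = 0.0179, limma) and missed the fold minimum, while Psma4 (0.66) and Psmd7 (0.74) were still called. The day 1 counts were 2 higher and 1 lower, where 4.57% and 4.39% of all probe sets were called. The median change of the members was 0.02 on day 1, 0.09 on day 3, 0.19 on day 7 and 0.16 on day 14. On days 7 and 14 limma called no member higher (2.45% and 4.29% of all), with 18 and 15 at an unadjusted p below 0.05. At the adjusted p alone 11 were higher on day 7 (9.33% of all), and 8 were higher (12.2%) and 2 lower (12.5%) on day 14. The core changed by 0.26 ± 0.04 on day 7 and 0.21 ± 0.04 on day 14 (SD, n = 3). Without ETH day 3 replicate 1 the count of that day was 6, and on day 1 Psma4 was lost without ETH replicate 2 or vehicle replicate 3.

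In 1,4-dichlorobenzene, Psma1 alone was called, at 0.63 ± 0.13 on day 14 (0.202% of all), and it was lost without vehicle replicate 2.

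Core and cap were compared by the mean change of 13 core and 14 cap genes in each treated array, each gene by its brightest probe set. The SD is over the treated arrays, and no test was made. On PBO day 1 the core rose by 1.15 ± 0.08 (SD, n = 3) and the cap by 1.06 ± 0.06, a difference of 0.09 ± 0.03. On PBO day 3 the difference was 0.14 ± 0.07, on DHEA day 7 0.08 ± 0.05, and on CPA day 1 -0.03 ± 0.03. Aap at 24 hours was the lowest of the 98 groups, with the core at 0.61 ± 0.01, the cap at 0.80 ± 0.09 and a difference of -0.19 ± 0.09. At the other end stood ETH day 1 with 0.25 ± 0.10 and DHEA day 1 with 0.17 ± 0.05. The difference was above 0 in 59 of 98 groups. It was above 0 by more than its SD in 36 groups and below 0 by more than its SD in 18. That SD leaves out the spread of the vehicle arrays, so these counts do not establish a difference between core and cap. Phenobarbital day 14 counted with -0.104 ± 0.009 and ETH day 14 with 0.101 ± 0.011, where the SD over vehicle arrays was 0.152 and 0.151. Replicate 3 of the phenobarbital day 14 vehicle group carried transcripts of skeletal muscle, with a list mean of 8.90 where the series median was 5.76. Its part in that spread and difference was not tested.

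Within the core, the alpha and beta means were 1.15 and 1.15 on PBO day 1 and 0.67 and 0.64 on DHEA day 7. In Aap at 24 hours the alpha mean was 0.69 and the beta mean 0.51, and on ETH day 1 they were 0.29 and 0.12. In the cap, the base and the lid stood at 1.11 and 1.00 on PBO day 1 and at 0.82 and 0.77 in Aap at 24 hours. The 3 base chaperones had lower means than core and cap in each of the 8 leading groups, from 0.08 on Wy day 1 to 0.57 on PBO day 1. With the chaperones counted in the cap, the CPA day 1 difference turned to 0.04.

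**Figure D4:**
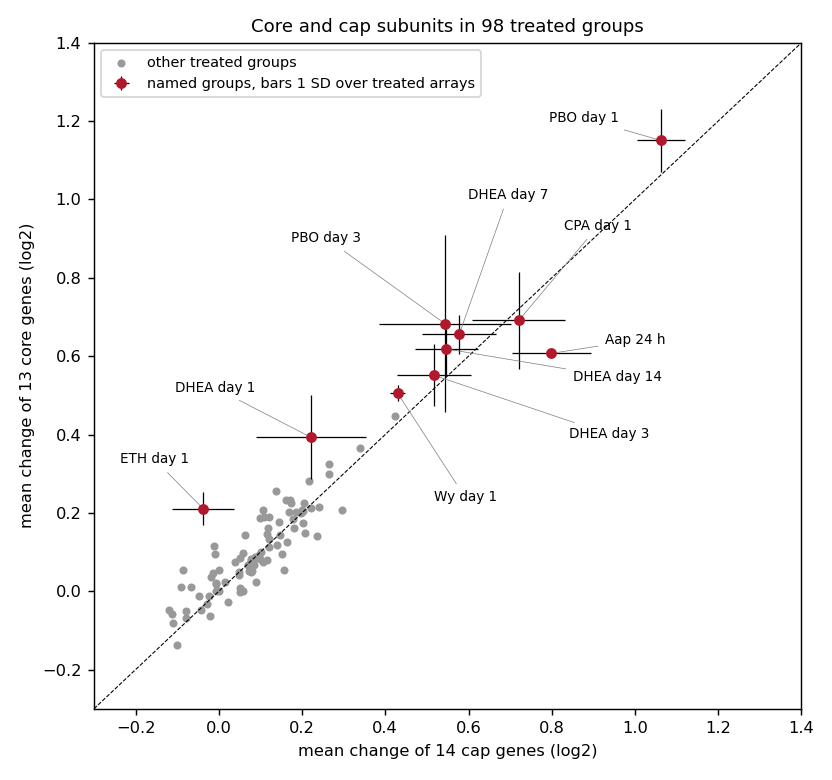
Each point is 1 of the 98 treated groups, with the mean log2 change of 14 cap genes on the x axis and of 13 core genes on the y axis. The dashed line marks equal change, and bars on named groups are 1 SD over the treated arrays. Points follow the line up to PBO day 1, Aap at 24 hours lies below it, and ETH day 1 and DHEA day 1 lie above it.

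**Figure D5:**
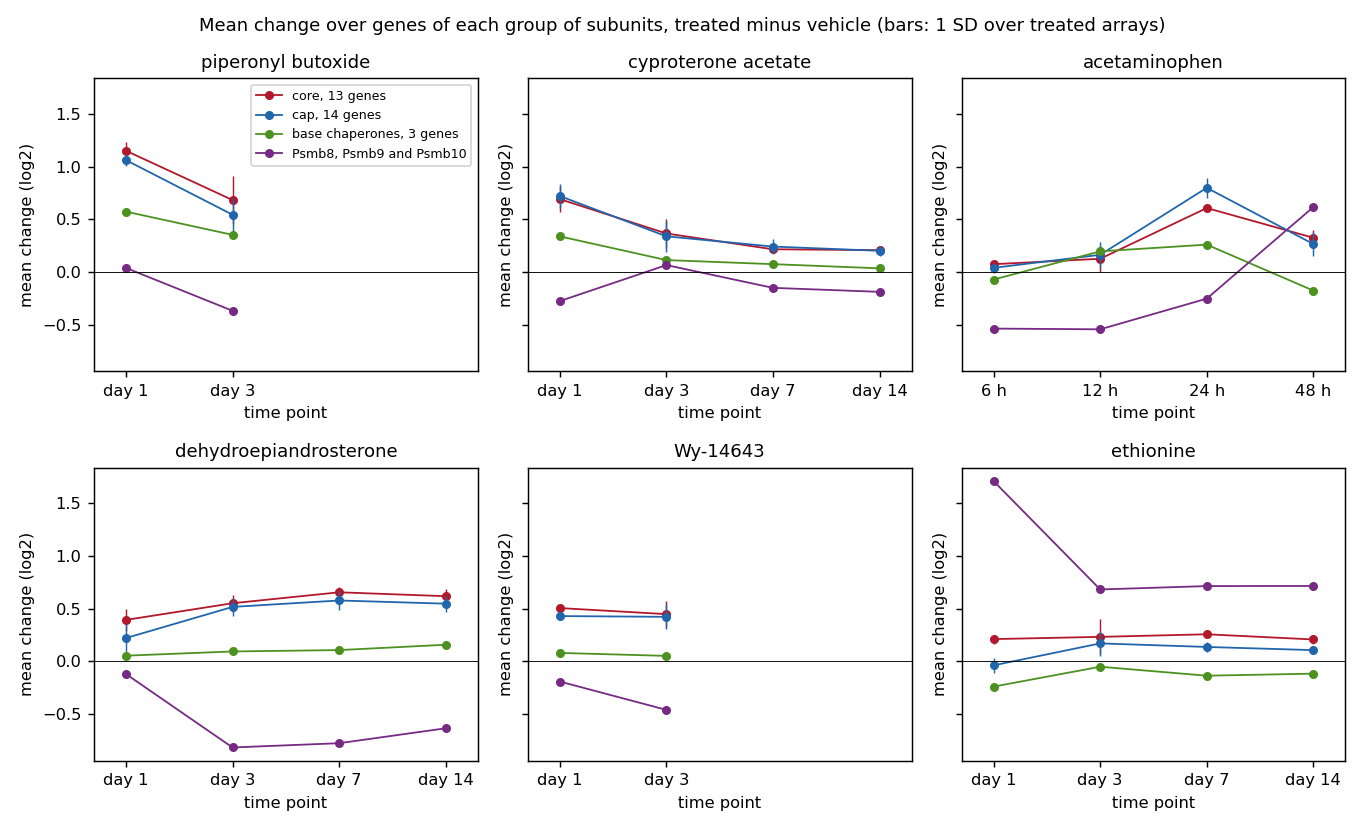
Each panel is 1 compound, with its time points on the x axis and the mean log2 change of each group of subunits on the y axis, with bars of 1 SD over the treated arrays for core and cap. The change of core and cap is largest at the first day in CPA and PBO, at 24 hours in Aap, and is larger at days 3, 7 and 14 than at day 1 in DHEA.

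The other genes of the pathway were counted by lists, each gene by its brightest probe set. The inducible subunits Psmb8, Psmb9 and Psmb10 were called higher in none of the 8 leading groups (24 tests, limma), and 1 test was higher and 11 lower at an unadjusted p below 0.05. Psmb8 fell by 1.44 on DHEA day 7, by 1.23 on day 3 and by 1.10 on day 14, and by 0.68 on PBO day 3. Psmb9 fell by 0.67 on DHEA day 3. On ETH day 1, where the median of the constitutive members was 0.02, Psmb8, Psmb9 and Psmb10 rose by 1.91, 1.94 and 1.28. Over the series an inducible subunit was called higher in 8 groups, 2 of them with a constitutive member higher, and lower in 8 groups, 5 of them with a constitutive member higher.

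Macrophage transcripts moved in some of the same groups. Of 9 macrophage markers 6 fell on CPA day 1, 6 on DHEA day 14 and 4 on DHEA day 3, and 5 rose on ETH day 1 and 9 on ETH day 3. The mean level of the list was 8.56 to 8.95 on DHEA day 14 against 9.35 to 9.57 in its vehicle group, and 9.59 to 10.22 on ETH day 1 against 8.75 to 8.95. On PBO day 1 it was 9.01 to 9.14 against the same vehicle group. Their part in the changes of the subunits was not tested. The 6 hepatocyte markers were higher in none and lower in 7 of 48 tests over the 8 leading groups, with list medians of -0.20 to -0.05. The lower calls were of Cps1 (4) and Apoa1 (3), and Alb, Ttr, Serpina1 and Cyp2e1 were not called in these groups. The mean level of the 6 markers was 13.72 to 13.79 on PBO day 1 against 13.81 to 14.02. It was 13.88 to 13.96 on CPA day 1 against 14.06 to 14.07, and 13.90 to 13.93 in Aap at 24 hours against 14.05 to 14.06. On PBO day 3 it was 13.77 to 13.89 against 13.99 to 14.07, and on Wy day 1 13.73 to 13.81 against 13.98 to 14.03. On DHEA day 7 it was 13.63 to 13.81 against 13.84 to 13.99. In each of the 8 leading groups, DHEA days 3 and 14 included, the treated arrays lay below the vehicle arrays without overlap. The part of this shift in the changes of the subunits was not tested either.

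Partners of the complex rose in part. Adrm1, a ubiquitin receptor of the cap, was called in 6 of the 8 leading groups and in no other group of the series, with 1.10 in Aap at 24 hours, 0.89 on Wy day 1 and 0.63 on PBO day 1. Of the 5 genes for core assembly, Psmg2 rose on PBO day 1 (0.80), CPA day 1 (0.63) and DHEA day 7 (0.68), and Psmg3 on DHEA day 7 (0.60). Psme4, an activator that binds the core, rose on PBO day 1 (0.88) and CPA day 1 (0.77). Among 4 regulators, Nfe2l1 rose on DHEA day 7 (0.79) and Keap1, the adaptor that targets NRF2 for degradation, in Aap at 24 hours (0.68). Nfe2l2 was called in none of the 8 leading groups, and in the series higher in 20 groups and lower in 2. Ddi2, the protease that activates NFE2L1, fell by 0.68 on PBO day 1.

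Genes that act before the proteasome were called mainly in 2 of the groups. Of 9 ubiquitin and shuttle genes 6 were called higher on PBO day 1 and 6 in Aap at 24 hours, each with a median of 0.65. On CPA day 1 and PBO day 3 1 was called in each, with 7 and 5 higher and none lower at an unadjusted p below 0.05. By limma none was called on DHEA days 3, 7 and 14 and Wy day 1. There 17 of 36 tests were higher and 1 lower at an unadjusted p below 0.05. Nploc4, a cofactor of the segregase VCP, rose by 1.10 on PBO day 1 and 1.33 in Aap at 24 hours. Vcp itself rose by 0.67 and 0.59, and Sqstm1, an autophagy receptor for ubiquitin, by 0.62 and 1.10.

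Stress and growth genes are given beside these counts because they moved in some of the same groups. Of 12 NRF2 targets, 9 rose on PBO day 1 (median 1.13), 5 on CPA day 1 (0.68), 9 in Aap at 24 hours (2.22) and 5 on PBO day 3 (0.68). On DHEA days 3, 7 and 14, 3, 1 and 1 of them rose, with medians of 0.37, 0.15 and 0.00, and on Wy day 1 1 rose and 1 fell (0.09). Of these, Me1 rose by 2.99, 3.80 and 3.35 on the 3 DHEA days. Of 8 cytosolic heat shock genes, 7 rose on PBO day 1, 4 on CPA day 1 and 8 in Aap at 24 hours, where Hspa1a changed by 5.25. On DHEA days 3, 7 and 14, 2, 3 and 1 of them rose, on Wy day 1 3 and on PBO day 3 1. Of 10 cell cycle genes, 10 rose on PBO day 1, 7 on CPA day 1, 8 on DHEA day 3 and 8 on Wy day 1. In Aap at 24 hours 1 rose, with a list median of -0.15. None rose by limma on PBO day 3, DHEA day 7 or DHEA day 14, where 3, 0 and 0 were higher at an unadjusted p below 0.05. Their part in the changes of the subunits was not tested.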

How the data were processed

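Liver RNA was hybridised to Affymetrix RAE230A arrays. The deposited table holds log2 intensities that the authors made with the robust multi-chip average (RMA), for 15866 probe sets in 293 treated and 128 vehicle arrays, with array medians of 7.38 to 7.49; no further scaling was applied. Probe sets were named through the platform annotation (12783 with 1 symbol). Groups came from the labels. A limma 3.58.1 fit in R 4.3.3, with 1 mean per group over 136 groups, gave 98 contrasts of treated minus vehicle, with Benjamini-Hochberg adjustment over all probe sets. The step was tested on simulated data. Tables and figures were made with Python 3.11.15, pandas 2.3.3 and matplotlib 3.10.9. The members and lists were chosen with earlier results of these data known. Named genes were the 5 called members with the largest change in each of the 8 groups with the most calls, with array values for the 6 members called most often and for Psmb5 and Psmb7; other members and list genes are named with their values, chosen after these were seen. The number of arrays limits the precision. SEs and p-values rest on the spread between animals within all 136 groups, which can differ from that of the 2 groups compared. Psmd5 in Aap at 24 hours had an SE of 0.13 beside SDs of 0.37 in treated and 0.21 in vehicle arrays. Psma4 on ETH day 1 had an adjusted p of 1.1e-07 (limma, all groups) and 0.0289 (limma, the 2 groups compared). Alternatives were no fold minimum, a fit of the compared 2 groups with or without the replicate block, quantile normalization, leaving out probe sets with a mean below 6, other definitions of the cap, and leaving out each array. Same-numbered arrays had a mean correlation of deviations of 0.0131, and every pair exceeded 0.1 in 4 of 98 groups, of which ETH day 1 is described with its blocked values. Elsewhere numbers were not taken to pair animals.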

Additional observations from a re-analysis of the deposited data

Results flagged for a closer look

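By the limma test of the difference between the first and last time, core or cap subunits differed in 2 of the 30 compounds. In PBO 7 members changed less on day 3 than on day 1 (1.74% of all probe sets), and in CPA 7 members changed less on day 14 than on day 1 (1% of all), of which 2 passed after quantile normalization. In Aap 1 of the 31 members, the base chaperone Psmd9, was lower at 48 hours than at 6 hours, where 5.29% of all probe sets were, so the count is no result about the members.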

How the results depend on the processing

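The animals per group, mostly 3, limit which changes could be called. Without the fold minimum the calls over all groups were 472 higher and 31 lower, and the counts higher were 27 on PBO day 3 (5.63% of all probe sets), 25 on DHEA day 14 (10%), 26 on DHEA day 7 (13.3%), 26 on DHEA day 3 (10%), 25 on Wy day 1 (8.36%), 27 on Wy day 3 (10.6%), 10 on ETH day 1 (15.7%) and 13 on ETH day 3 (20.7%). The counts lower at the last than at the first time were then 2 for Aap (12.7%), 16 for CPA (1.63%) and 21 for PBO (3.66%). Quantile normalization left 2 for CPA. A fit of only the compared groups gave 1 lower call over all groups, and with the replicate block also 1, each without Psmd5 on ETH day 1. The block left 27 members called on PBO day 1, 24 on CPA day 1 and 20 in Aap at 24 hours, and Psmb5 on PBO day 3 (0.58, adjusted p = 0.0106, limma) and Psmc5 on DHEA day 3 (0.48, adjusted p = 0.0111, limma) then missed the fold minimum, as Psmb7 on Wy day 1 (0.56) did after quantile normalization. Core minus cap, with the base chaperones in the cap, was -0.10 in Aap at 24 hours, 0.038 on CPA day 1, 0.14, 0.11 and 0.16 on DHEA days 14, 3 and 7, 0.18 on PBO day 1 and 0.14 on Wy day 1. With every probe set counted it was 0.093 on DHEA day 14, 0.050 on DHEA day 3, 0.13 on PBO day 1 and 0.086 on Wy day 1, and after quantile normalization 0.055 on DHEA day 14. The cause of these moves was not tested.

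Leaving out each of 89 arrays in turn gave counts higher of 27 to 27 on PBO day 1, 21 to 26 on CPA day 1, 17 to 22 in Aap at 24 hours, 11 to 21 on PBO day 3, 14 to 17 on DHEA day 14, 13 to 18 on DHEA day 7, 7 to 15 on DHEA day 3, 3 to 6 on Wy day 1, 3 to 8 on Wy day 3, 3 to 6 on ETH day 3, 1 to 2 on ETH day 1 and 0 to 5 on DHEA day 1, with no change of sign. Core minus cap ran from -0.23 to -0.14 in Aap at 24 hours, -0.048 to -0.015 on CPA day 1, 0.046 to 0.099 on DHEA day 14, 0.026 to 0.047 on DHEA day 3, 0.059 to 0.104 on DHEA day 7, 0.072 to 0.105 on PBO day 1, 0.10 to 0.18 on PBO day 3 and 0.064 to 0.095 on Wy day 1. The counts lower at the last than at the first time ran from 4 to 10 for PBO, 4 to 14 for CPA and 1 to 2 for Aap.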
